A study of Mus musculus with 10 samples.

Results

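Cytochrome P450 enzymes are haem proteins that insert oxygen into sterols, steroids, retinoids, fatty acids and drugs. Here the family was taken as every gene whose name in the array files starts with Cyp and a digit. Cyp11a1, Cyp17a1, Cyp19a1 and Cyp51, which act in steroid hormone or cholesterol synthesis, were left out, while the corticosteroid enzymes Cyp21a1 and Cyp11b2 were kept. This gave 78 genes with 109 probes, of 27339 gene names and 41174 probes on the arrays. A gene counted as measured when a probe was well above background, by the scanner software's own test, on at least 3 of the 5 arrays of a group. That held for 56 P450 genes, against 20065 genes in all. The rule picks members by name alone, but it was set with earlier results of these data known.

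Microsomal P450s receive their electrons from the reductase Por, and mitochondrial P450s from the ferredoxin Fdx1 and its reductase Fdxr. In brain the family is best known for clearing cholesterol as oxysterols, for breaking down retinoic acid, and for turning arachidonic acid into signalling lipids. The drug-metabolizing families CYP2 and CYP3A are known mainly from liver, where nuclear receptors such as Nr1i3 induce them.

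RNA came from the hippocampus of 10 adult ICR mice, an outbred stock. In the high estradiol group (HE, 5 arrays), the mothers had been given estradiol valerate, an estradiol ester, by mouth in corn oil at 100 µg/kg/day between E5.5 and E11.5. In the control group (NC, 5 arrays), the mothers had been given corn oil alone. Each array held 1 animal, labelled male, and litters are not given, so p-values cover the spread between these animals, which may include littermates. Signals are log2 values relative to the 75th percentile of the same array, and levels of different probes are not set against each other.

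Some arrays went against their labels or stood apart. On 7 of 10 arrays (NC1 to NC4 and HE1 to HE3) Xist lay between 3.20 and 4.44 and the Y-linked gene Ddx3y between -9.32 and -5.54, against the label male. Slide 1 held NC1 to NC4, slide 2 held NC5, HE1 and HE2, and slide 3 held HE3 to HE5, so only slide 2 held both groups. Liver markers were high on NC1, NC2 and NC4, and 11 of 13 were also above background on NC5. Thalamic markers were lower in HE for 10 of 12 genes (summed log2 signal 4.97 to 6.34 in NC and 3.02 to 4.41 in HE), and myelin markers for 9 of 12 (8.79 to 9.15 and 8.003 to 8.393). All 12 markers of hippocampal neurons were well above background on all 10 arrays, with 3 higher in HE and a summed signal of 5.60 to 6.61 in NC and 6.73 to 7.12 in HE. The part of these differences in the P450 results was not tested, except where a value is given below. In tissue RNA, fewer cells of a type and less RNA per cell cannot be told apart.

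The probes below carry the main results, and their first 30 bases, or 30 bases of an overlap with another gene's probe, are shown 5′ to 3′ as in the array files. The 3 probes of Cyp2d22 are shown because 1 of them moved against the others.
Cyp2d22 A_52_P49391: ttccctcaaattgataatgtttatacatag
Cyp2d22 A_51_P124126: tctgtgtctaccatgcaccactttggcctg
Cyp2d22 A_52_P478420: gttgctttccgattccagcatgcctgtaat
On the mm9 build they lie on the minus strand at chr15:82201687-82201746, chr15:82204377-82204436 and chr15:82205919-82205978. The probes of Cyp46a1 (chr12:109596310-109598708, plus strand) and Cyp2j9 (chr4:96235281-96235340, minus strand) each list 1 gene.
Cyp46a1 A_51_P457664: ttgattgatggggtcagagtccctggcaat
Cyp2j9 A_51_P330044: aaattaaggtgacagagagtgcgtgcaatg
The probes of Cyp2j11 (chr4:95964317-95964376) and Cyp2j13 (chr4:95712305-95723288, a span wider than the probe) overlap over 30 bases, of which 28 are identical. Capitals mark the bases that differ.
Cyp2j11 A_51_P423085: atgggcagtttaagaagaAagaatcCtttc
Cyp2j13 A_51_P476481: atgggcagtttaagaagaGagaatcTtttc
Such likeness bears on what a probe can tell apart. Of the 109 member probes, 22 list transcripts of more than 1 RefSeq gene, and the same holds for 10 of the 56 measured genes. Whether a probe lies in a coding exon or an untranslated region was not analysed here.

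Across the family, 5 genes were higher in HE and 9 were lower (limma, adjusted p under 0.05 over all genes), while 42 did not pass the test. That was 8.93% higher and 16.1% lower, against 6.82% and 13.3% of all genes tested, so the shares lay near the background. The median log2 difference was -0.11 over the 56 genes and -0.04 over all genes, and it stayed at -0.11 with the 3 genes that have only a bound set at their bound. It was 0.05 with slide as a block (all genes -0.13) and 0.10 after quantile normalization, so its sign turned with the setting. The genes that rose were Cyp46a1, Cyp26b1, Cyp2d22, Cyp2d12 and Cyp2d9. Those that fell were Cyp2f2, Cyp3a13, Cyp2j13, Cyp2j11, Cyp2b13, Cyp2j9, Cyp2c55, Cyp27a1 and Cyp2j6. Of the 56 measured genes, 4 were higher and 5 lower in HE without overlap of NC and HE arrays, all of them among the called genes. Over all genes tested the shares were 5.91% and 10.5%, so these counts also lay near the background. Among those lower, Cyp2f2 entered the test through NC alone. Without HE3 the count was 8 genes, 3 higher and 5 lower, against 4.37% and 9.19% of all genes. Without HE5 it was 9, 4 higher and 5 lower, against 3.58% and 10.1%. Without NC1, NC2 and NC4, the arrays with high liver markers, 10 P450 genes were called, 5 higher and 5 lower, 8 of them among the 14, against 4.35% and 5.21% of all genes.

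**Figure D1:**
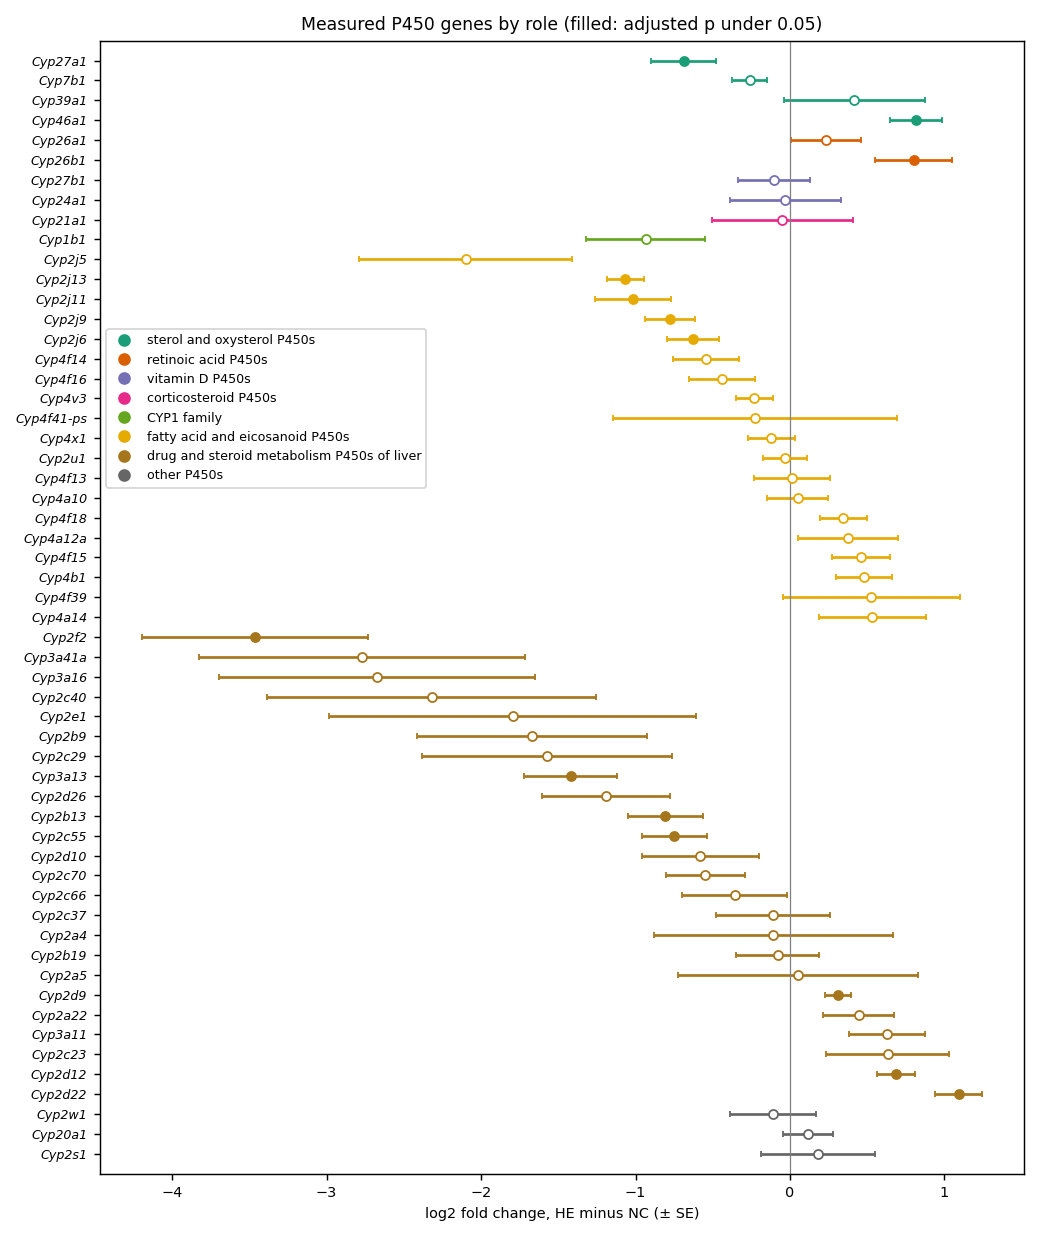
Log2 fold change of each of the 56 measured P450 genes, HE minus NC, with its standard error from limma, coloured by role; filled points passed the test at an adjusted p under 0.05. The 4 CYP2J genes that passed lie to the left of 0, the 3 CYP2D genes that passed to the right, and the longest error bars belong to genes of the liver-type group.

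Slide and treatment were largely confounded. With slide as a fixed block, which leaves the contrast within slide 2, all 14 differences kept their sign but only Cyp2j13 passed, where 0.922% of all genes did. Within slide 2 alone, 1 array against 2, limma called 0 of the P450 genes and 0 in all, with 19 and 7075 at an unadjusted p under 0.05. The scaling of the arrays also mattered: after quantile normalization 6 P450 genes were higher and 5 lower (9.47% and 12% of all genes), and after normexp background correction 2 were higher and 28 lower (9.27% and 34.2% of all genes). Normexp moved the median difference of all genes to -0.28. With each array then centred on its median gene, that median was -0.07, and 4 P450 genes were higher and 25 lower (16.2% and 27.9% of all genes).

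**Figure D2:**
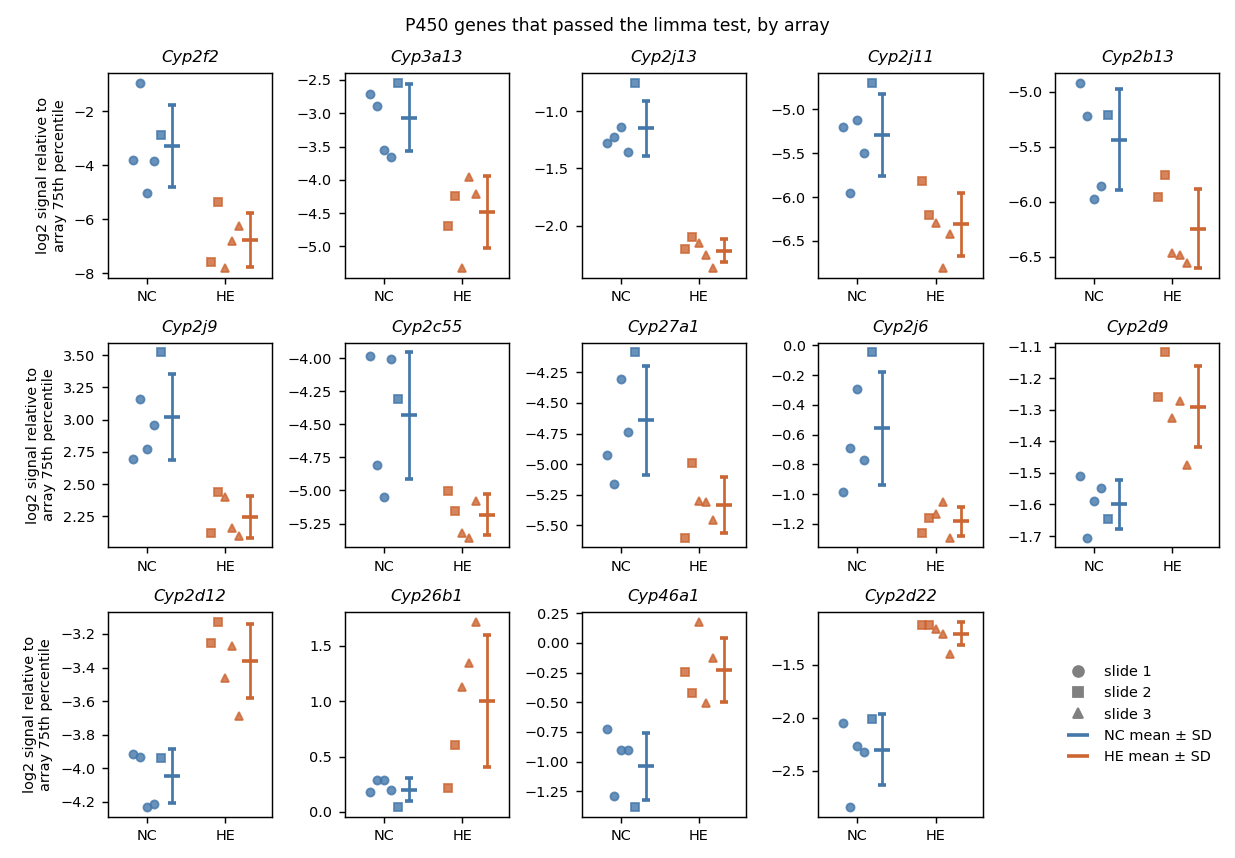
Log2 signal relative to the array's 75th percentile for the 14 P450 genes that passed, 1 point per array, with the marker giving the slide and the bar the group mean ± SD (n = 5). The Cyp2d22 points of HE lie together at -1.40 to -1.12, above every NC point, and for Cyp26b1 the 3 HE points of slide 3 lie above the HE points of slide 2.

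The sterol enzymes did not move together. Of 6 genes, 4 were measured: Cyp46a1 rose, Cyp27a1 fell, and Cyp7b1 and Cyp39a1 did not pass the test. Cyp7a1 and Cyp8b1, the bile acid enzymes of liver, had no probe above background on any array. Cyp46a1, the neuronal hydroxylase whose oxysterol product carries cholesterol out of the brain, had signals of -0.73, -1.29, -0.90, -0.90 and -1.39 on NC1 to NC5. On HE1 to HE5 it had -0.24, -0.42, 0.18, -0.51 and -0.13. The groups did not overlap, and NC1, the highest control, stayed below HE4, the lowest HE array. The log2 difference was 0.81 ± 0.17 (SE, adjusted p = 0.0145), and leaving out single arrays gave 0.71 to 0.89. It was 1.05 with slide as a block (adjusted p = 0.112) and 0.92 without NC1, NC2 and NC4 (adjusted p = 0.0491).

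Cyp27a1, the mitochondrial sterol hydroxylase, had signals of -4.92, -5.16, -4.30, -4.74 and -4.08 in NC and of -5.60, -4.99, -5.30, -5.31 and -5.45 in HE. HE2 lay inside the control range, and NC5 was the highest array. The difference was -0.69 ± 0.21 (adjusted p = 0.0428), with -0.82 to -0.55 and adjusted p of 0.039 to 0.0974 when single arrays were left out. It no longer passed without any one of NC3, NC4, NC5, HE1, HE3, HE4 or HE5, and quantile normalization gave -0.38 (adjusted p = 0.227). Cyp7b1, which hydroxylates oxysterols and neurosteroids, had 1.46 ± 0.18 (SD, n = 5) in NC and 1.20 ± 0.16 in HE, a difference of -0.26 (adjusted p = 0.13). NC1, at 1.14, stood below the other controls at 1.47 to 1.57, and without it the difference was -0.34 and passed. Cyp39a1, which acts on the product of Cyp46a1, differed by 0.42 ± 0.46 (adjusted p = 0.545), with controls spread from -5.43 to -2.71.

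Both measured retinoic acid hydroxylases had positive differences in the main test, and Cyp26b1 rose. It had signals of 0.18, 0.29, 0.29, 0.20 and 0.04 in NC and of 0.22, 0.60, 1.13, 1.35 and 1.72 in HE. The controls were tight, HE1 lay among them, and the 3 HE arrays of slide 3 were the highest. HE4 and HE5, at the top, were also the only HE arrays with low Xist and high Ddx3y. The difference was 0.80 ± 0.25 (adjusted p = 0.0471), and within slide 2 it was 0.37 (adjusted p = 0.406). Of the ways of leaving out 1 array, only those without HE1 (0.997) or HE2 (0.902) kept the call, and the lowest of the other values was 0.62. Among the arrays with high Xist alone, Cyp26b1 differed by 0.41 (adjusted p = 0.26). Adding high or low Xist to the model gave 0.71, which did not pass either (adjusted p = 0.0555). Across all 25 alternatives the gene was called in 10. Cyp26a1 had -5.74 ± 0.40 in NC and -5.51 ± 0.38 in HE (difference 0.23, adjusted p = 0.491). The sign of Cyp26a1 turned with the scaling. It was called lower after normexp (-1.29, adjusted p = 0.0393) and when centred on the median gene (-1.08, adjusted p = 0.0392).

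Vitamin D, corticosteroid and CYP1 genes showed no call in the main test. After normexp Cyp1b1, Cyp21a1, Cyp24a1 and Cyp27b1 were called lower, as were 34.2% of all genes. Their differences were then -1.38, -1.38, -1.37 and -1.03 (adjusted p = 0.00815, 0.0203, 0.0443 and 0.0468). When centred on the median gene, Cyp27b1 did not pass (adjusted p = 0.0526). Cyp1b1 also passed in 1 of the 10 ways of leaving out 1 array. Cyp27b1, which makes the active vitamin D hormone, differed by -0.10 ± 0.23, and Cyp24a1, which inactivates it, by -0.03 ± 0.36 (adjusted p = 0.784 and 0.963). Cyp2r1, the hydroxylase before Cyp27b1, was above background on 1 array at most. Cyp21a1, a hydroxylase of glucocorticoid and mineralocorticoid synthesis, differed by -0.05 ± 0.46, with NC3 at -2.78 against -5.29 to -5.09 on the other controls. Cyp11b2, the aldosterone synthase, was above background on no array. Cyp1b1, which hydroxylates estradiol and retinoids, had signals of -3.82, -2.55, -2.56, -2.66 and -1.51 in NC and of -3.88, -3.003, -4.09, -3.06 and -3.74 in HE. NC1 lay within the HE range and NC5 was the highest array. The difference of -0.93 ± 0.39 did not pass (adjusted p = 0.11), and the summed signal of 8 meningeal markers was also lowest on NC1 among the controls, at 2.86, and highest on NC5, at 5.18. Their part in the result was not tested. Cyp1a1 and Cyp1a2 were above background on no array.

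The most even pattern lay in the CYP2J group, epoxygenases of arachidonic acid whose genes lie together on chromosome 4. Of 5 measured genes, 4 fell, where 13.3% of all genes did, and the median difference over the 5 was -1.02. The Cyp2j13 and Cyp2j11 probes are alike, as printed above, so the 4 may not be separate readings. The differences of these 4 were negative under each of the 25 alternatives, and all 4 were called without NC1, NC2 and NC4. Cyp2j13 had signals of -1.28, -1.23, -1.14, -1.36 and -0.75 in NC and of -2.20, -2.10, -2.15, -2.25 and -2.37 in HE. The groups were far apart relative to their spread, with the lowest control above the highest HE array. The difference was -1.07 ± 0.12 (adjusted p = 0.00322), and it was -1.40 with slide as a block (adjusted p = 0.0285) and -0.90 among the 7 arrays with high Xist (adjusted p = 0.0376). No other P450 gene passed in either of these last settings, in which 0.922% and 0.384% of all genes were called.

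What the Cyp2j13 probe measures is less certain than its difference. The probe lists both Cyp2j12 and Cyp2j13, and the other 2 probes of Cyp2j13, which list that gene alone, were above background on no array. The second Cyp2j11 probe was also above background on no array, and the first shares 28 of 30 bases with the Cyp2j13 probe, as printed above. Cyp2j11 had signals of -5.20, -5.96, -5.12, -5.50 and -4.69 in NC and of -5.82, -6.20, -6.30, -6.81 and -6.42 in HE. HE1 lay above NC2, so the groups overlapped. The difference was -1.02 ± 0.24 (adjusted p = 0.0215), and quantile normalization gave -0.70 (adjusted p = 0.07). How far these probes bind each other's transcripts was not tested.

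Cyp2j9, a CYP2J enzyme known from brain, had signals of 2.70, 3.16, 2.77, 2.96 and 3.52 in NC and of 2.12, 2.44, 2.40, 2.16 and 2.10 in HE. All HE arrays lay below all controls. The difference was -0.78 ± 0.16 (adjusted p = 0.0146), and -1.24 with slide as a block (adjusted p = 0.057). After normexp it was -0.56 (adjusted p = 0.0809), and -0.35 when centred on the median gene (adjusted p = 0.311). Cyp2j6 had signals of -0.98, -0.69, -0.29, -0.77 and -0.04 in NC and of -1.26, -1.16, -1.13, -1.05 and -1.29 in HE, again without overlap. Its difference of -0.63 ± 0.17 (adjusted p = 0.0301) ran from -0.73 to -0.50 with single arrays left out, and the call was lost without NC2, NC3, HE1, HE2, HE3 or HE5 (adjusted p up to 0.0683). On all 4 genes NC5 was the highest control, as it was for the thalamic markers. Cyp2j5, a kidney and liver form, was above background on 3 NC arrays and on no HE array, at means of -6.50 and -8.60. Those arrays were NC1, NC2 and NC4, which had high liver markers. By its group mean Cyp2j5 was at least 1.27-fold lower in HE, which did not pass (adjusted p = 0.0557). Its call turned on single arrays, passing without NC3, NC5 or HE4; it entered the test through NC alone, and no difference is given for signals below background.

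**Figure D3:**
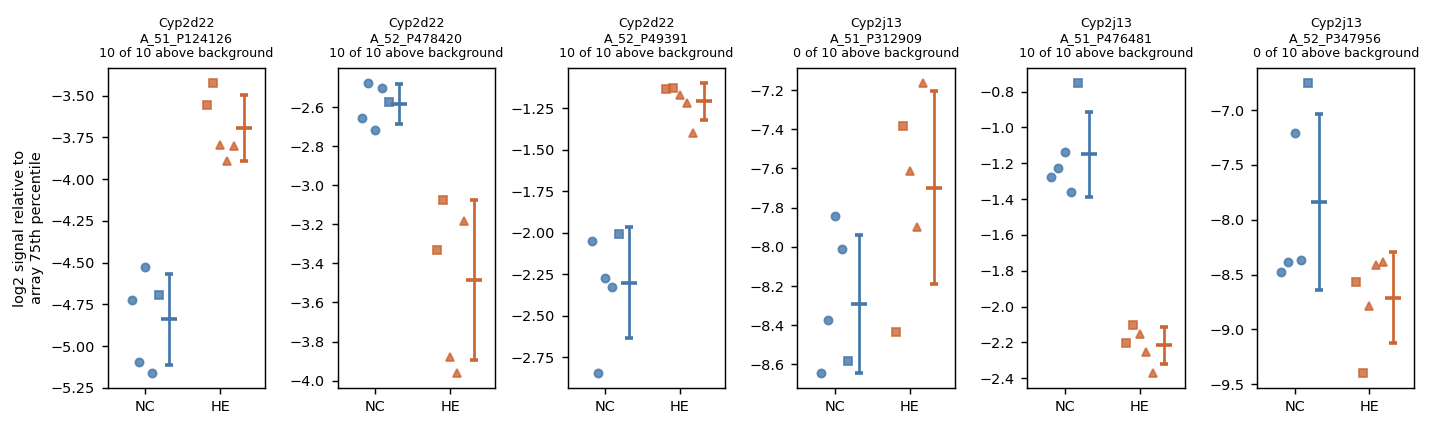
Log2 signal relative to the array's 75th percentile for the 3 probes of Cyp2d22 and the 3 probes of Cyp2j13, 1 point per array, with the slide as marker and the group mean ± SD (n = 5). In Cyp2d22, HE lies above NC on A_51_P124126 and A_52_P49391 and below it on A_52_P478420; for Cyp2j13, only A_51_P476481 was above background on all 10 arrays.

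The stretches upstream of the CYP2J start sites are printed because 4 of these neighbouring genes fell. Each is the 250 bases before the start, minus strand, from RefSeq on GRCm38.p6. Capitals mark 4 motifs on either strand: the TATA box (TATAAA), the GC box (GGGCGG), the core of many nuclear receptor sites (AGGTCA) and the core of the site bound by Ahr (GCGTG).
Cyp2j13, chr4:96077541-96077790: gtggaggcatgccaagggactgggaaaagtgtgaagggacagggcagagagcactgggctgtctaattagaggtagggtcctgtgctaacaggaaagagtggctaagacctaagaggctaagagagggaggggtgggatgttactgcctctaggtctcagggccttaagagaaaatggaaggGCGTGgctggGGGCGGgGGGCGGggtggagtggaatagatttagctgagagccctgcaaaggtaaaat
Cyp2j6, chr4:96553652-96553901: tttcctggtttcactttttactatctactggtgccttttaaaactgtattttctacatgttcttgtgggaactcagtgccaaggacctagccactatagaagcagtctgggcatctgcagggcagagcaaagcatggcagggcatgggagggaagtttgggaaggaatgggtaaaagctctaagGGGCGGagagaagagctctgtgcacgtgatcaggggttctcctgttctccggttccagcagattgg
Cyp2j9, chr4:96591486-96591735: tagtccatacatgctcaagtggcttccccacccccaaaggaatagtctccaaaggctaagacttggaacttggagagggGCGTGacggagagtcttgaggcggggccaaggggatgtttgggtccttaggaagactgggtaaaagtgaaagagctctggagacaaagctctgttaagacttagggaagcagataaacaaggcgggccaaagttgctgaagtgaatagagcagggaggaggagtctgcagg
Cyp2j11, chr4:96348681-96348930: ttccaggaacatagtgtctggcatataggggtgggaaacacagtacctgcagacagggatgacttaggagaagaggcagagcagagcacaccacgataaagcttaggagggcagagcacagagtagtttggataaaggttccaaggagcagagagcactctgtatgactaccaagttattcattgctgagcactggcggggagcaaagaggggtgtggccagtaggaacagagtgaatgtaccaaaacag
Cyp2j5, chr4:96664120-96664369: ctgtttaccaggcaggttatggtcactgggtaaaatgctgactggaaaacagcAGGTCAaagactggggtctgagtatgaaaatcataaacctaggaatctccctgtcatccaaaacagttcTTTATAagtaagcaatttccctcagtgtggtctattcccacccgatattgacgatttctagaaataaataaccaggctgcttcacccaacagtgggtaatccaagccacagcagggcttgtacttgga
None of the windows printed for the 4 genes that fell holds TATAAA, while that of Cyp2j5 does, along with AGGTCA. The Cyp2j13 probe also lists Cyp2j12, whose window is not printed, so the Cyp2j13 window may not belong to the gene that was read. Cyp2j13, which has a second start with a nearly identical window, holds GGGCGG and GCGTG, Cyp2j6 holds GGGCGG, Cyp2j9 holds GCGTG, and Cyp2j11 holds none of the motifs. Over the family, 57 of 78 genes were matched, with 63 such windows. TATAAA was in 36.5% of them and in 12.4% of all 32851 windows, and AGGTCA in 22.2% and 14%. GGGCGG was in 25.4% and 32.7%, and GCGTG in 22.2% and 28.2%. These are matches of letters, and no binding was measured.

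The other fatty acid P450s gave no call: the 4 genes of CYP2J that fell were the only ones among 19 measured in this group, and 0 of 7 CYP4F genes passed in limma, with 3 at an unadjusted p under 0.05. Cyp4f15, a hydroxylase of leukotrienes, had 0.08 ± 0.42 in NC and 0.54 ± 0.14 in HE (difference 0.46, adjusted p = 0.105), and Cyp4f13 -1.91 ± 0.48 and -1.90 ± 0.35 (0.01, adjusted p = 0.976). Cyp4b1, named after its values were seen, had -4.46 ± 0.41 and -3.98 ± 0.11 (difference 0.48, adjusted p = 0.0868). It was called higher after quantile normalization (0.74, adjusted p = 0.0352) and without NC1, NC2 and NC4 (0.85, adjusted p = 0.0251), and was -0.78 after normexp (adjusted p = 0.135) and -0.57 when centred on the median gene (adjusted p = 0.187). Cyp4x1, known for its expression in brain, differed by -0.12 ± 0.15 (adjusted p = 0.596). Cyp4v3, a fatty acid hydroxylase known from retina, differed by -0.23 ± 0.12 (adjusted p = 0.183), and Cyp2u1, a fatty acid hydroxylase of brain and thymus, by -0.03 ± 0.14 (adjusted p = 0.895). Of the remaining genes, Cyp20a1, an orphan P450, differed by 0.12 ± 0.16 and Cyp2s1, known from epithelia, by 0.18 ± 0.37 (adjusted p = 0.636 and 0.756).

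The drug and steroid metabolizing group was the largest, with 24 of 36 genes measured, 3 higher, 4 lower and a median difference of -0.56. All genes were called at 6.82% higher and 13.3% lower. The 3 that rose were all CYP2D genes, of 5 measured. The other 2 did not pass and had negative differences. Cyp2d26 differed by -1.19 ± 0.41 (adjusted p = 0.0669) and Cyp2d10 by -0.58 ± 0.38 (adjusted p = 0.29). These 2 were named after their values were seen. Cyp2d22, a mouse CYP2D gene expressed outside the liver, had signals of -2.05, -2.85, -2.27, -2.32 and -2.01 in NC and of -1.13, -1.12, -1.17, -1.22 and -1.40 in HE. The HE arrays lay close together and above every control. The difference was 1.09 ± 0.15 (adjusted p = 0.00612), and 0.96 to 1.16 with single arrays left out. It was 0.88 with slide as a block (adjusted p = 0.138) and 0.40 after normexp (adjusted p = 0.127), or 0.61 when centred on the median gene (adjusted p = 0.0206).

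The probes of Cyp2d22 disagreed. A_51_P124126 gave -4.73, -5.09, -4.53, -5.16 and -4.69 in NC and -3.55, -3.42, -3.80, -3.89 and -3.80 in HE, a difference of 1.15 ± 0.15 (adjusted p over probes = 0.00446). A_52_P478420 gave -2.66, -2.47, -2.72, -2.50 and -2.57 in NC and -3.33, -3.07, -3.88, -3.96 and -3.18 in HE, a difference of -0.90 ± 0.18 (adjusted p over probes = 0.0116). Neither probe's groups overlapped, and the directions were opposite. A_52_P478420 lists no RefSeq transcript and, on the minus strand, lies the farthest to the 5′ side of the 3. Which transcript it reads was not tested.

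Cyp2d12 had signals of -3.91, -3.93, -4.23, -4.21 and -3.94 in NC and of -3.25, -3.13, -3.46, -3.27 and -3.69 in HE, without overlap. The difference was 0.69 ± 0.13 (adjusted p = 0.011), but it was -0.50 after normexp (adjusted p = 0.251) and -0.29 after normexp centred on the median gene (adjusted p = 0.408). Cyp2d9 had -1.51, -1.71, -1.59, -1.55 and -1.65 in NC and -1.26, -1.12, -1.33, -1.27 and -1.47 in HE, also without overlap. Its difference of 0.31 ± 0.09 (adjusted p = 0.0339) was the smallest among the called genes, and it was -0.02 after normexp (adjusted p = 0.927) and 0.19 after normexp centred on the median gene (adjusted p = 0.238). It kept its call only without NC1, NC4 or HE5 among the 10 single arrays, with values of 0.27 to 0.36 and adjusted p up to 0.0807. Its probe also lists Cyp2d11. The second Cyp2d9 probe, A_51_P124133, gave 0.52 ± 0.11 (limma, adjusted p over probes = 0.0151) and lists 4 genes, with Cyp2d34 and Cyp2d40 besides. These close copies cannot be told apart.

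Cyp2f2, known from the airway epithelium, fell. It had signals of -3.82, -0.94, -5.03, -3.83 and -2.87 in NC and of -7.58, -5.36, -7.82, -6.81 and -6.23 in HE. NC3, the lowest control, lay just above HE2, the highest HE array, and the probe, which entered the test through NC alone, was above background on 2 of 5 HE arrays. Its difference therefore rests in part on HE signals that were not measured above background. The difference was -3.46 ± 0.73 (adjusted p = 0.0155), and -2.81 without NC1, NC2 and NC4 (adjusted p = 0.0713). Cyp3a13, a CYP3A form known from intestine, had -2.71, -2.89, -3.55, -3.66 and -2.54 in NC and -4.69, -4.24, -5.33, -3.96 and -4.21 in HE. The groups did not overlap, at a difference of -1.42 ± 0.30 (adjusted p = 0.0157). Without NC1, NC2 and NC4 it was -1.44 and no longer passed (adjusted p = 0.073). With slide as a block it was -1.93 (adjusted p = 0.125).

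Cyp2b13 and Cyp2c55 fell with overlapping groups. Cyp2b13 had -4.92, -5.22, -5.98, -5.86 and -5.21 in NC and -5.96, -5.75, -6.47, -6.48 and -6.55 in HE (difference -0.81 ± 0.24, adjusted p = 0.0414). Cyp2c55 had -3.99, -4.81, -5.05, -4.01 and -4.31 in NC and -5.00, -5.15, -5.32, -5.36 and -5.08 in HE (difference -0.75 ± 0.21, adjusted p = 0.0342). NC3 lay among the HE arrays in both genes. Cyp2b13 kept its call only without NC3, NC4 or HE2 (-0.94, -0.91 and -0.93), and Cyp2c55 only without NC2 or NC3 (-0.84 and -0.90). The other single arrays left adjusted p at up to 0.0932 and 0.0738. Quantile normalization gave -0.49 and -0.46, and neither passed (adjusted p = 0.0697 and 0.138).

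A further set of liver-type genes had larger mean differences than most of these and did not pass, with uneven controls. Cyp3a41a had -0.92, -0.86, -6.43, -1.87 and -5.18 on NC1 to NC5, and -5.72, -4.92, -6.02, -6.30 and -6.17 in HE. NC1, NC2 and NC4 were high, while NC3 and NC5 lay among or near the HE arrays. The difference was -2.77 ± 1.05 (adjusted p = 0.0869), and -0.02 without NC1, NC2 and NC4. Cyp2c40 had -3.04, -3.002, -8.32, -3.56 and -7.42 in NC and was above background on no HE array (means -5.07 and -7.39). By its group mean, which NC1, NC2 and NC4 raise, it was at least 3.40-fold lower in HE (adjusted p = 0.144). Cyp3a16 had -3.82, -3.77, -8.37, -4.83 and -8.78 in NC and was likewise above background on no HE array (means -5.91 and -8.59), at least 1.91-fold lower (adjusted p = 0.0881). These bounds set the NC mean against the higher of the HE signal and the array's dimmest signal above background, over all probes. A given probe's own limit can lie higher. Cyp2c40 on HE4, at -6.77, exceeded that array's dimmest such signal, -6.83, without passing. All bounds given here are therefore approximate. Both genes entered the test through NC alone. On the arrays other than NC1, NC2 and NC4 neither gene was above background, so both bounds rest on those arrays. Without NC3, Cyp3a41a passed at -3.62. The calls of Cyp2c40 (without NC3) and Cyp3a16 (without NC3 or NC5) also turned on single arrays, against HE signals that were all below background.

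Cyp2e1, the ethanol-oxidizing P450, had -4.96, -4.84, -8.40, -5.22 and -7.46 in NC and -3.64, -9.52, -8.92, -8.21 and -9.56 in HE. HE1 was the highest of all 10 arrays, and the difference of -1.79 ± 1.19 did not pass (adjusted p = 0.299). The probe entered the test through NC alone, by NC1, NC2 and NC4, and HE1 was the only HE array above background. Without HE1 the difference was -2.88 and passed (adjusted p = 0.0489), against HE signals that were all below background. Cyp2b9 had -4.86, -4.38, -7.56, -5.49 and -6.18 in NC and -5.82, -6.24, -8.74, -8.79 and -7.24 in HE (difference -1.67 ± 0.74, adjusted p = 0.132). Cyp2b9 also entered the test through NC alone. Cyp3a11, a major CYP3A form of liver, had -3.03 ± 0.55 in NC and -2.40 ± 0.23 in HE (difference 0.63, adjusted p = 0.0928), on a probe that lists 4 genes. Without NC1, NC2 and NC4 its difference was 1.11 and passed (adjusted p = 0.0294), and after normexp it was -0.11 (adjusted p = 0.807).

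The arrays that were high for Cyp3a41a, Cyp3a16, Cyp2c40 and Cyp2e1 among the controls were those with high liver markers. Of 15 liver markers 13 were measured. Of these 8 fell and the other 5 did not pass, and the median difference over the 13 was -3.52. Hp, Hpx and Tat were above background on all 10 arrays and differed by -1.86, -1.40 and -0.87 (limma, adjusted p = 0.0295, 0.0219 and 0.0226). All the other measured markers entered the test through NC alone, so their calls and the median are no support for a direction of the list. The summed log2 signal of the 13 was 2.65, 2.45, -0.62, 1.88 and 0.03 on NC1 to NC5 and -1.38 to -0.88 in HE. Albumin lay at 0.50, 0.44 and -0.23 on NC1, NC2 and NC4, at -7.93 on NC3 and at -4.82 on NC5. Of the 13 markers, 13, 13, 4, 13 and 11 were above background on NC1 to NC5, and 3, 10, 3, 3 and 6 on HE1 to HE5. HE1, where Cyp2e1 was high, had 3. The part of liver RNA in these results was not tested. Of the called genes, Cyp2j13, Cyp2j9, Cyp2j11, Cyp2j6, Cyp27a1, Cyp46a1, Cyp2d22 and Cyp2d12 also passed without NC1, NC2 and NC4. That setting keeps NC5, so it does not remove all liver marker signal from the controls.

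**Figure D4:**
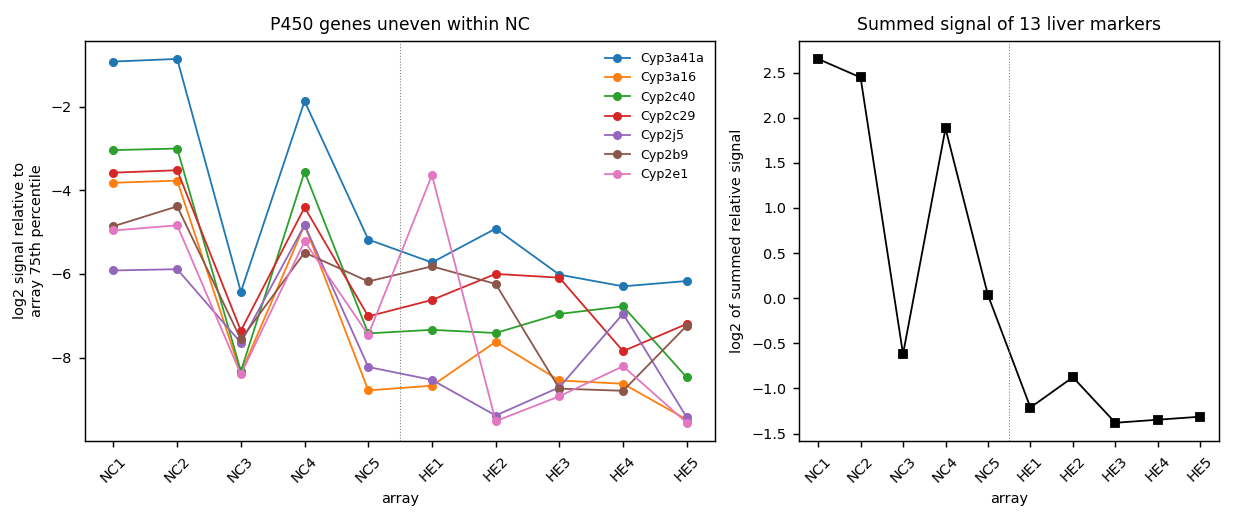
Left, log2 signal relative to the array's 75th percentile for 7 liver-type P450 genes on each array, joined by lines for reading only; right, log2 of the summed relative signal of 13 liver markers on the same arrays. NC1, NC2 and NC4 are high in both panels, and Cyp2e1 has its highest value, -3.64, on HE1.

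Cyp2a4 and Cyp2a5, steroid and coumarin hydroxylases, varied widely without regard to group. Cyp2a5 had -0.46, 0.80, -1.56, -2.49 and -2.25 in NC and -0.47, -1.70, 0.41, -3.22 and -0.71 in HE. NC2 and HE3 were the highest and HE4 the lowest array, over a range larger than any group difference in CYP2A. Cyp2a4 followed the same order at both ends, with 0.68 on NC2, 0.13 on HE3 and -3.42 on HE4. The group differences were 0.05 ± 0.78 and -0.11 ± 0.77 (adjusted p = 0.97 and 0.935). The probe that stands for Cyp2a4 also lists Cyp2a5, so the genes cannot be told apart here. These 2 genes were described after their values were seen.

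The partners that supply electrons and haem were all measured, and 3 of 12 passed, 2 higher and 1 lower, against 6.82% and 13.3% of all genes. Por, the reductase of microsomal P450s, had 3.65, 3.49, 3.48, 3.44 and 3.21 in NC and 3.94, 3.90, 4.12, 3.85 and 4.01 in HE, and rose by 0.51 ± 0.10 (adjusted p = 0.0127). All HE arrays lay above all controls. Alas1, which makes the first haem precursor, rose by 0.31 ± 0.09 (adjusted p = 0.0357). Fdxr, the reductase of the mitochondrial chain, fell by 0.37 on the log2 scale (SE 0.10, adjusted p = 0.0298). Fdx1 differed by -0.000827 ± 0.12 (adjusted p = 0.996). With slide as a block 0 of the 12 passed in limma, with 4 at an unadjusted p under 0.05, and without NC1, NC2 and NC4 only 1 did. After quantile normalization Alas1 did not pass (0.25, adjusted p = 0.0643) and Hmox2, which degrades haem, fell by 0.27 on the log2 scale (adjusted p = 0.0367), so that 1 was higher and 2 were lower.

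Among regulators, 15 of 16 were measured and 3 passed, 2 higher and 1 lower, against 6.82% and 13.3% of all genes. The 2 that were higher entered the test through HE alone, so their calls are no support for a direction of the list. Nr1i3, the receptor that induces CYP2B genes in liver, had -1.25, -2.19, -3.01, -2.55 and -1.97 in NC and -4.00, -3.61, -4.58, -3.51 and -3.03 in HE. It fell by 1.55 on the log2 scale (SE 0.36, adjusted p = 0.0189), with NC3 barely above HE5. Nr1h4, the bile acid receptor, was above background on no NC array and on all 5 HE arrays, at means of -6.32 and -5.70, and was at least 1.43-fold higher in HE (adjusted p = 0.0247). Rara, a retinoic acid receptor, was above background on no NC array and on 3 HE arrays (means -7.86 and -6.59, adjusted p = 0.0167), and no fold is given because its HE mean did not exceed the dimmest measurable control signal. Ahr, the receptor that induces CYP1 genes, differed by 0.32 ± 0.10 (adjusted p = 0.0566), and Rxrg by 1.27 ± 0.67 (adjusted p = 0.194).

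**Figure D5:**
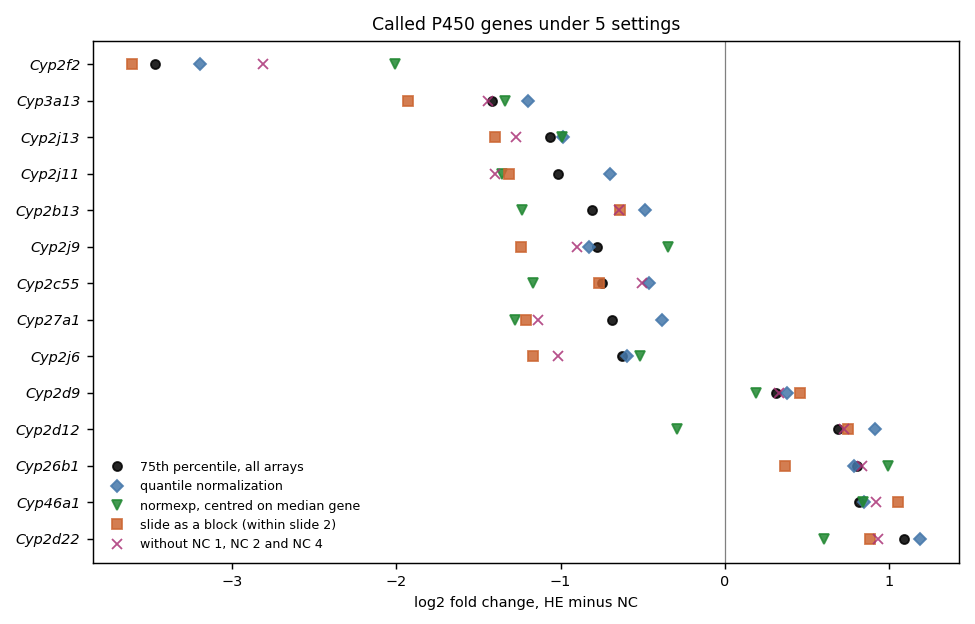
Log2 fold change, HE minus NC, of the 14 called P450 genes under 5 settings: the 75th percentile with all arrays, quantile normalization, normexp centred on the median gene, slide as a block, and without NC 1, NC 2 and NC 4. All points keep the side of 0 they have with all arrays, except Cyp2d12 under normexp, at -0.29.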

How the data were processed

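The submitters' processing notes name Agilent Feature Extraction 10.7 as the software that read the 1-colour arrays. It gave the intensity of each spot on a linear scale, and the deposited processed intensity is background-subtracted, per the file headers. A table of log2 values that the authors deposited for the whole series, with its making not given in the sources used here, served as an alternative.

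From each log2 processed signal the 75th percentile of its array's non-control probes (899 to 1289 in signal units) was subtracted on the log2 scale. Spots marked as outliers were left out (68 to 129 per array), no spot was saturated, and between 70.3% and 78.8% of probes passed the scanner's background test. Precision is limited by the small number of arrays. Spots of a probe were averaged, and the brightest entering probe, by its mean over arrays, stood for a gene. Probes were named through RefSeq (GRCm38.p6): 27668 by accession, 93 by another accession, 5991 by symbol or synonym, and 7422 kept the file's name. For the P450 genes this changed 2 names.

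The test was limma 3.58.1 under R 4.3.3 (lmFit, eBayes, two-sided, 10 arrays, no covariate, Benjamini-Hochberg over all genes, threshold 0.05), checked on simulated data. Members and lists were chosen with earlier results of these data known. Named are all called P450 genes, a set fixed by function, the 6 uncalled genes with the largest differences, and those above background in 1 group only. The SD of differences between arrays of a group was 0.444 to 0.722, so no array was a duplicate of another in its group. Pairs across the groups were not checked in this way. Alternatives covered slide, replicate number, background correction, scaling, filters, probe choice, variance prior, the Xist pattern and leaving out arrays; normexp (offset 50) centred on the median gene was added after seeing the data.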

Additional observations from a re-analysis of the deposited data

Results flagged for a closer look

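3 of 70 sets of 5 arrays, among the named genes, had 1 array far from the other 4, where chance gives about 1 in 20. Cyp21a1 was -2.78 on NC3, against -5.29 to -5.09 on the other controls. Cyp2e1 was -3.64 on HE1, against -9.56 to -8.21 on the other HE arrays. Cyp7b1 was 1.14 on NC1, against 1.47 to 1.57 on the other controls.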

How the results depend on the processing

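Of the 14 called P450 genes, 12 kept their sign under every one of the 25 alternatives and 8 kept their call without each single array. Cyp2d12 turned to -0.502 with normexp and to -0.292 when its arrays were also centred; the cause was not tested. Cyp2d9 was -0.0204 with normexp, which moved the median of all genes down, and 0.189 when centred. Slide as a fixed block left 185 of the 4031 calls over all genes, 1 P450 gene, and 0 partners and 0 regulators; slide 2 alone left 0 of each (limma; at an unadjusted p under 0.05 the block gave 4 partners and 4 regulators, and slide 2 gave 4 and 6). The 7 arrays with high Xist alone gave 77 calls over all genes, 1 P450 gene and 0 of either list (3 and 4 at an unadjusted p under 0.05), with fewer arrays. Without NC1, NC2 and NC4 there were 1918 calls over all genes, 1 partner and 1 regulator. Normexp gave 8726 calls over all genes, 30 P450 genes, 7 regulators and a P450 median of -1.01; centred, it gave 8848, 29, 7 and -0.802, with 5 partners. Quantile normalization and the value table put that median at 0.101 and 0.103, and slide as a block at 0.0522. Each probe on its own gave 7113 calls and 5 regulators. Leaving out single arrays gave 1929 to 4179 calls over all genes, 8 to 15 P450 genes and 1 to 3 partners. Replicate numbers did not pair the arrays: same-numbered arrays correlated at -0.08 to 0.13 in their deviations from the group means. With the replicate block there were 2978 calls over all genes, 12 P450 genes, 10 of them among the 14, and 1 partner. Of the 56 measured P450 genes, 39 were well above background on all 10 arrays.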
